A study of Mus musculus with 10 samples.

Results

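The genes described are 8 members of a membrane-bound stress pathway, measured in implanted mouse lung tumors: the CREB3 family members Creb3, Creb3l1, Creb3l2 and Creb3l4, the related factors Atf6 and Xbp1, and the site proteases Mbtps1 and Mbtps2. They were taken by symbol from the 55401 genes listed in the count table, and all 8 were among the 17464 genes that passed the filter on low counts. The set was chosen by a measured value, the higher level of Creb3l1 in liraglutide-treated tumors. That difference is therefore given as a description with no test, while the other 7 genes and the relation of Creb3l1 to Col1a1 are tested.

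RNA was sequenced from 10 subcutaneous KPN1.1 tumors of male C57BL/6J mice with diet-induced obesity, 5 given liraglutide, a glucagon-like peptide-1 receptor agonist, and 5 given the PBS vehicle, by daily intraperitoneal injection from the time tumors were palpable. KPN1.1 is labelled a lung adenocarcinoma line, and it carries NINJA, a neoantigen cassette. Both groups shared the line, the host strain, the sex and the obesity, and the hosts were immunocompetent. The ages of the mice are given in the study's methods only as a range, not by tumor, and whether the line is a clone is not given in the sources used here. Each library came from a frozen tumor fragment and so held RNA of tumor cells and host cells together. Tumors carry the numbers 1 to 5 within a treatment, each from its own mouse. The library numbers ran on from the vehicle to the liraglutide group, so the order of the libraries and the treatment cannot be told apart.

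CREB3 family proteins and ATF6 are transcription factors made as membrane proteins of the endoplasmic reticulum. Under stress or on a developmental signal they move to the Golgi, where the site-1 protease (Mbtps1) and then the site-2 protease (Mbtps2) cut them, and the freed bZIP part enters the nucleus. XBP1 is activated another way, by IRE1-dependent splicing of its mRNA, and shares target genes with ATF6 in the unfolded protein response (UPR). Creb3l1, also called OASIS, is best known from osteoblasts, where it activates Col1a1, the gene of the main type I collagen chain. Creb3l2 is best known from cartilage, where it drives Sec23a and with it the export of procollagen. Gene counts measure mRNA, and neither cleavage of the proteins nor splicing of Xbp1 can be read from them.

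ATF6 and XBP1 reach their targets through short promoter elements, and those found at targets measured here are shown because these targets are read beside Atf6 and Xbp1 in what follows. The ER stress element (ERSE) is CCAAT, 9 bases of any kind and CCACG. ERSE-II is ATTGG, any base and CCACG, and the core of the UPR element (UPRE) is TGACGTGG. Each was searched on both strands in the RefSeq promoter windows of GRCm38.p6, and the printed hits do not overlap one another. In the lines that follow the element is in capitals, read 5′ to 3′ on the strand of the gene, and an ERSE that begins with CGTGG lies on the opposite strand.
Hspa5, upstream window, chr2:34771840-34772089, plus strand: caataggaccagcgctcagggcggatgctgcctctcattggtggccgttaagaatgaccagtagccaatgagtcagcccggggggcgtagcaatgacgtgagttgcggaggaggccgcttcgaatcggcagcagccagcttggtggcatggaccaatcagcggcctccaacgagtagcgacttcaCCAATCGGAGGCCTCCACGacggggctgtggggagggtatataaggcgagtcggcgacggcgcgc
Hsp90b1, upstream ERSE, chr10:86705633-86705661, minus strand: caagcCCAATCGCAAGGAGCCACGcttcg
Hsp90b1, ERSE nearer the start, chr10:86705528-86705556, minus strand: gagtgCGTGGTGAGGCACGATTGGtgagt
Dnajc3, ERSE, chr14:118937822-118937850, plus strand: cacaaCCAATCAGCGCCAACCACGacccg
Derl3, ERSE, chr10:75893237-75893265, plus strand: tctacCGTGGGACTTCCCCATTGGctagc
Herpud1, ERSE-II, chr8:94386368-94386396, plus strand: cgggcgctgATTGGGCCACGttggacact
Sec23a, UPRE core, chr12:59011995-59012020, minus strand: cctccccttTGACGTGGcagaggcgg
Sec24d, UPRE core, chr3:123267461-123267486, plus strand: ccgggcgccTGACGTGGcactagcaa

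The ERSE was found in the windows of 9 of the 22 listed UPR targets that had a window, Calr, Canx, Creld2, Derl3, Dnajc3, Hsp90b1, Hspa5, Pdia6 and Syvn1, and in 39 of all 32851 windows (0.119%). ERSE-II was found at Herpud1 and Dnajb11 and in 12 windows in all (0.0365%). The UPRE core was found at Sec23a and Sec24d, the COPII coat genes of the collagen export list, and in 222 windows in all (0.676%). None of the 10 windows of 7 CREB3 family, XBP1 and protease genes held any of these letters, which says nothing about their control. Windows of Creb3l1, Atf6 and Col1a1 were not analysed here.

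In GENCODE M39 on GRCm39, Creb3 (ENSMUSG00000028466.15 in the table) lies at chr4:43557639-43577647 on the plus strand, Creb3l1 (ENSMUSG00000027230.9) at chr2:91812673-91854917, Creb3l2 (ENSMUSG00000038648.5) at chr6:37304190-37419239 and Creb3l4 (ENSMUSG00000027938.11) at chr3:90144103-90150845, all 3 on the minus strand. Atf6 (ENSMUSG00000026663.6) lies at chr1:170532026-170696208 on the minus strand, Xbp1 (ENSMUSG00000020484.19) at chr11:5470606-5483027 on the plus strand, Mbtps1 (ENSMUSG00000031835.16) at chr8:120234415-120285605 and Mbtps2 (ENSMUSG00000046873.18) at chrX:156318367-156381711 on the minus strand. Protein-coding genes overlap Creb3 (Tln1 and Gba2), Creb3l4 (Jtb) and Xbp1 (Ccdc117) on the opposite strand and Mbtps2 (Yy2) on the same strand, lncRNAs overlap Creb3l1, Creb3l2 and Atf6 on the opposite strand, and nothing overlaps Mbtps1. The strand setting of the counting is not given in the sources used here, so reads of such neighbours could count towards these genes.

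Total counts lay between 9927942 and 14480593 per tumor, and 3 counts, taken as the floor, came to between 0.207 and 0.315 CPM. CPM is the count per 1000000 counts of a library, with library sizes scaled by the TMM method, and differences are log2 fold changes of liraglutide minus vehicle from edgeR's quasi-likelihood test. At a Benjamini-Hochberg adjusted p under 0.05, edgeR called 0 of 17464 genes (0%), while 1675 genes (9.59%) had an unadjusted p under 0.05, 694 higher and 981 lower with liraglutide. Scaled by library size alone, that split turned to 990 higher and 619 lower. DESeq2 called 102 genes at an adjusted p under 0.05 and limma-voom called 0. For 261 genes (1.49%) the 2 groups of CPM values had no overlap. None of the 7 other members had an unadjusted p under 0.05 in edgeR, DESeq2 or limma-voom, and none had an adjusted p under 0.05, which DESeq2 did not assign to Creb3 and Creb3l4. The groups overlapped for all 8 members.

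Creb3l1 was at 14.1, 17.4, 10.8, 22.5 and 11.6 CPM in vehicle tumors 1 to 5 and at 47.1, 30.8, 19.0, 27.2 and 34.1 CPM in liraglutide tumors 1 to 5. Liraglutide tumors 1, 2, 4 and 5 lay above all vehicle tumors, and liraglutide tumor 3 lay below vehicle tumor 4, so the groups overlapped. The means were 15.3 ± 4.78 CPM (SD, n = 5) and 31.6 ± 10.3 CPM (SD, n = 5), a fold of 2.07 and a log2 fold change of 1.05 (SE 0.26). Its counts were between 103 and 545 per tumor, well above the floor. In a bulk fragment, more cells that express a gene and more RNA per cell cannot be told apart. Of the defining osteoblast genes, Bglap was at 0 counts in 8 tumors and at most 0.245 CPM, and Sp7 and Ibsp stayed at or below 0.595 and 0.207 CPM, while Runx2, which other cells share with osteoblasts, was between 72.1 and 105 CPM.

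**Figure D1:**
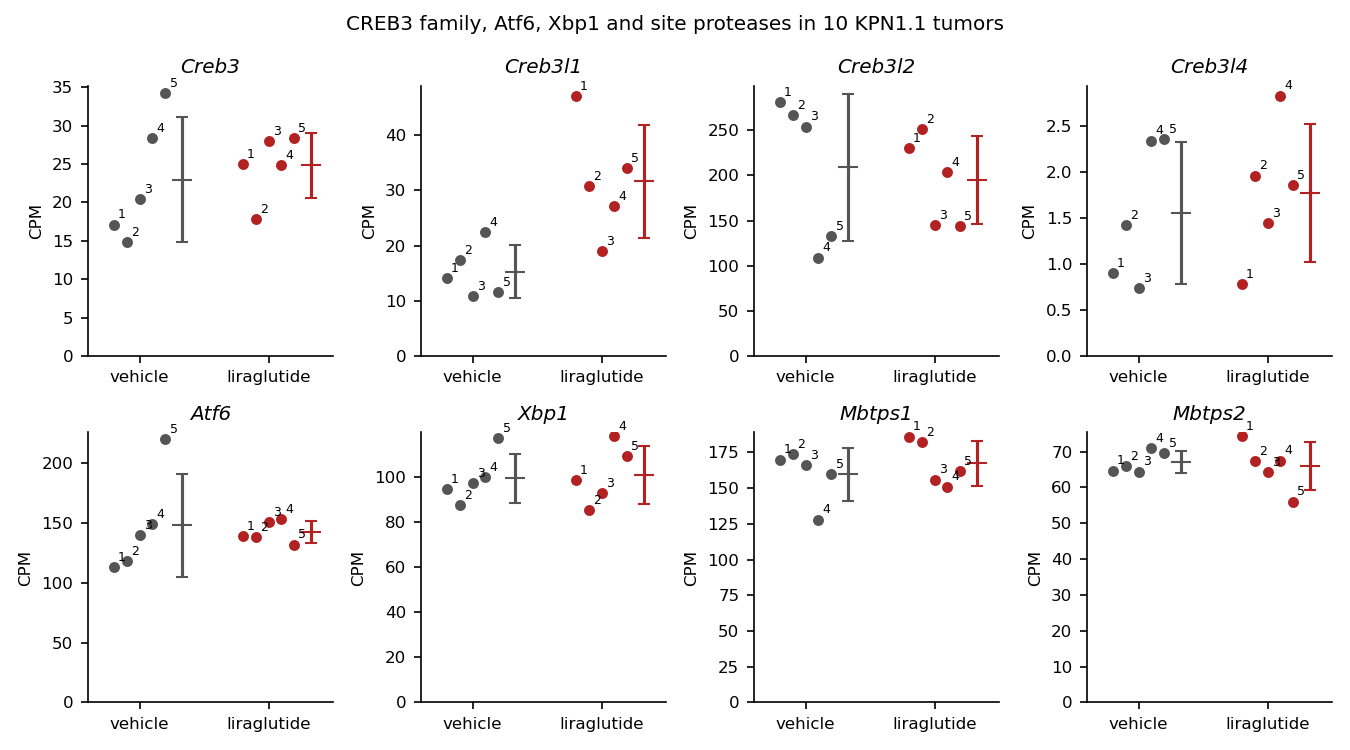
CPM (TMM-scaled, axis from 0) of each of the 8 genes in the 5 vehicle tumors (grey) and the 5 liraglutide tumors (red), with the tumor number beside each point and the mean ± SD beside each group. Creb3l1 is the gene whose group means, 15.3 and 31.6 CPM, stand apart, while Creb3l2 and Atf6 spread more within the vehicle group than between the groups.

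The other CREB3 family members had mean differences within their spread. Creb3, also called Luman, a partner of the host cell factor HCFC1, was at 17.1, 14.8, 20.4, 28.4 and 34.2 CPM in vehicle tumors 1 to 5 and at 25, 17.8, 28, 24.9 and 28.4 CPM in liraglutide tumors 1 to 5. The vehicle tumors held both its lowest value, in tumor 2, and its highest, in tumor 5. Its log2 fold change was 0.11 (SE 0.23, 95% confidence interval -0.39 to 0.62, edgeR adjusted p = 0.881, two-sided exact permutation p = 0.5).

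Creb3l2 was at 281, 267, 254, 109 and 133 CPM in vehicle tumors 1 to 5 and at 230, 251, 145, 204 and 144 CPM in liraglutide tumors 1 to 5. The vehicle tumors fell into a high set of 1, 2 and 3 and a low set of 4 and 5, and the liraglutide tumors lay between these ends. The means were 209 ± 81.2 and 195 ± 48.8 CPM (SD, n = 5 each), with a log2 fold change of -0.10 (SE 0.28, 95% confidence interval -0.71 to 0.51, edgeR adjusted p = 0.917, exact permutation p = 0.905). Part of the order of the tumors in Creb3l2 ran along the largest axis of variation over all genes. Principal component 1, which held 48.7% of the variance, was lowest in vehicle tumors 1 (-69.3), 2 (-67.2) and 3 (-32.4) and liraglutide tumors 2 (-28.1), 1 (-4.36) and 4 (24.2), and these were, in the same order, the 6 tumors highest in Creb3l2. The other 4, vehicle tumors 4 (38.5) and 5 (39.3) and liraglutide tumors 5 (49.6) and 3 (49.7), ran the other way, with Creb3l2 at 109, 133, 144 and 145 CPM.

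Creb3l4, a member best known from prostate and testis, was the least abundant of the set, with 7 to 30 counts per tumor. It was at 0.898, 1.42, 0.735, 2.34 and 2.36 CPM in vehicle tumors 1 to 5 and at 0.777, 1.96, 1.44, 2.83 and 1.86 CPM in liraglutide tumors 1 to 5, and the groups overlapped over most of their range. At this depth the interval of its log2 fold change of 0.18 ran from -0.71 to 1.07 (SE 0.41, edgeR adjusted p = 0.893, exact permutation p = 0.611). Jtb overlaps it on the opposite strand, and so few counts could hold reads of that gene.

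Creb3l3, the liver and gut member of the family that was not in the set, was at 3.66, 7.0, 9.03, 6.02 and 13.7 CPM in vehicle tumors 1 to 5 and at 4.58, 4.49, 6.75, 4.25 and 3.72 CPM in liraglutide tumors 1 to 5. Its log2 fold change was -0.72 (SE 0.32, edgeR unadjusted p = 0.0441, adjusted p = 0.515, exact permutation p = 0.111), in a table where 9.59% of genes had an unadjusted p under 0.05. The vehicle group held its lowest and its highest tumor, so the groups overlapped, and without vehicle tumor 5 the log2 fold change was -0.42.

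Atf6, the stress sensor that the site proteases release from the same membrane, was at 113, 118, 140, 149 and 220 CPM in vehicle tumors 1 to 5 and at 139, 138, 151, 153 and 132 CPM in liraglutide tumors 1 to 5. Vehicle tumor 5 stood above the other 9 tumors, and the liraglutide tumors lay close together. The means were 148 ± 43.0 and 143 ± 8.92 CPM (SD, n = 5 each), with a log2 fold change of -0.05 (95% confidence interval -0.42 to 0.32, edgeR adjusted p = 0.931, exact permutation p = 0.976).

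Xbp1 was at 94.4, 87.6, 97.3, 100 and 117 CPM in vehicle tumors 1 to 5 and at 98.6, 85.3, 92.8, 118 and 109 CPM in liraglutide tumors 1 to 5. Vehicle tumor 5 and liraglutide tumor 4 were the highest and lay close to each other. The log2 fold change was 0.02 and its 95% confidence interval, -0.23 to 0.27, was among the narrower ones of the set (SE 0.11, edgeR adjusted p = 0.96, exact permutation p = 0.889).

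The proteases varied little between tumors. Mbtps1 was at 170, 174, 166, 128 and 160 CPM in vehicle tumors 1 to 5 and at 186, 182, 156, 151 and 162 CPM in liraglutide tumors 1 to 5. Mbtps2, an X-linked gene, was at 64.7, 65.9, 64.4, 70.9 and 69.6 CPM and at 74.4, 67.3, 64.3, 67.5 and 56.0 CPM. For both the groups overlapped, and liraglutide tumor 1 was the highest of the 10. The log2 fold change was 0.07 for Mbtps1 (95% confidence interval -0.17 to 0.31, edgeR adjusted p = 0.84, exact permutation p = 0.532) and -0.03 for Mbtps2 (95% confidence interval -0.23 to 0.18, edgeR adjusted p = 0.94, exact permutation p = 0.714). The coefficient of variation of the level over the 10 tumors was 7.37% for Mbtps2 and 10.2% for Mbtps1, next to 11.3% for Xbp1, 20.2% for Atf6, 25.9% for Creb3, 31.5% for Creb3l2, 43.9% for Creb3l4 and 48.8% for Creb3l1.

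Compared per length, as RPKM, the CPM divided by the exon length in kilobases, the order of the mean levels over 10 tumors was Creb3l2 (25.4 ± 8.0, SD), Atf6 (14.8 ± 3.00), Xbp1 (14.4 ± 1.63), Mbtps1 (13.8 ± 1.40), Creb3l1 (8.67 ± 4.23), Creb3 (5.51 ± 1.43), Mbtps2 (5.44 ± 0.401), Creb3l3 (1.73 ± 0.849) and Creb3l4 (0.690 ± 0.303). Creb3l2 lay above Atf6 in 8 of 10 tumors and Mbtps1 above Creb3l1 in 9. Neighbours that did not separate were Atf6 and Xbp1, with Atf6 higher in 5 tumors, Xbp1 and Mbtps1, with Xbp1 higher in 6, and Creb3 and Mbtps2, with Creb3 higher in 5. The mean of Creb3l1 on this scale was 5.65 RPKM in vehicle tumors and 11.7 RPKM in liraglutide tumors, which put it level with Creb3 (5.29) and Mbtps2 (5.49) in the former and above them (5.72 and 5.39) in the latter.

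The targets of ATF6 and XBP1 are chaperones, folding enzymes and degradation factors of the endoplasmic reticulum, and 25 were listed and tested. In the treatment contrast 8 had a positive and 17 a negative log2 fold change, with a median of -0.06 against -0.02 over all genes, of which 47.4% were positive. None had an edgeR adjusted p under 0.05, and 1, Hsp90b1, had an unadjusted p under 0.05, as did 9.59% of all genes. Hsp90b1, the chaperone GRP94, averaged 804 ± 101 CPM in vehicle and 601 ± 63.6 CPM in liraglutide tumors (SD, n = 5 each), with 4 liraglutide tumors below all vehicle tumors. Its log2 fold change was -0.42 (SE 0.11, unadjusted p = 0.00361, edgeR adjusted p = 0.482), and DESeq2 gave it an adjusted p of 0.0479.

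Hspa5, the chaperone BiP, averaged 903 ± 288 CPM in vehicle and 749 ± 52.1 CPM in liraglutide tumors, a log2 fold change of -0.27 (edgeR adjusted p = 0.649), or -0.09 without vehicle tumor 5. Derl3, of the degradation machinery, had a log2 fold change of -0.42, and Dnajb9, an ER co-chaperone, one of -0.23. Dnajc3 (0.30) and Os9 (0.25) had the largest positive values of the list. The wide vehicle spread lay partly in tumor 5. In that tumor 19 of the 25 targets had their highest value of the 10 tumors, as did 15.4% of all tested genes. The spread also ran over the other vehicle tumors, with Hspa5 at 599, 726, 800, 1074 and 1314 CPM in vehicle tumors 1 to 5. Herpud1, which carries ERSE-II, was at 54.4, 72, 92 and 156 CPM in vehicle tumors 1 to 4 and at 332 CPM in vehicle tumor 5, against 80.7 to 161 CPM in the liraglutide tumors. Without vehicle tumor 5 the number of targets with a positive log2 fold change was 15 instead of 8, the median was 0.11, and Herpud1 and Derl3 turned from -0.18 and -0.42 to 0.42 and 0.20. No direction of the list can be read apart from that tumor, while Hsp90b1 stayed at -0.36 without it.

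Of the 5 other UPR sensors and factors, Eif2ak3 (PERK) had a positive log2 fold change of 0.14 and Ern1 (IRE1), Atf4, Ddit3 and Atf6b had negative ones, with a median of -0.09. None had an edgeR unadjusted p under 0.05. Atf4, the factor downstream of PERK, averaged 193 ± 42.3 CPM in vehicle and 153 ± 19.7 CPM in liraglutide tumors (log2 fold change -0.33, edgeR adjusted p = 0.52, exact permutation p = 0.0476). Ddit3 (CHOP), at a log2 fold change of -0.52 (edgeR adjusted p = 0.597), was at 34.5 CPM in vehicle tumor 5 and between 9.24 and 18.1 CPM in the other 9. All but Eif2ak3 were highest in vehicle tumor 5, without which the log2 fold change was -0.18 for Atf4 and -0.16 for Ddit3. Without that tumor the median of the 5 genes turned to 0.02.

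**Figure D2:**
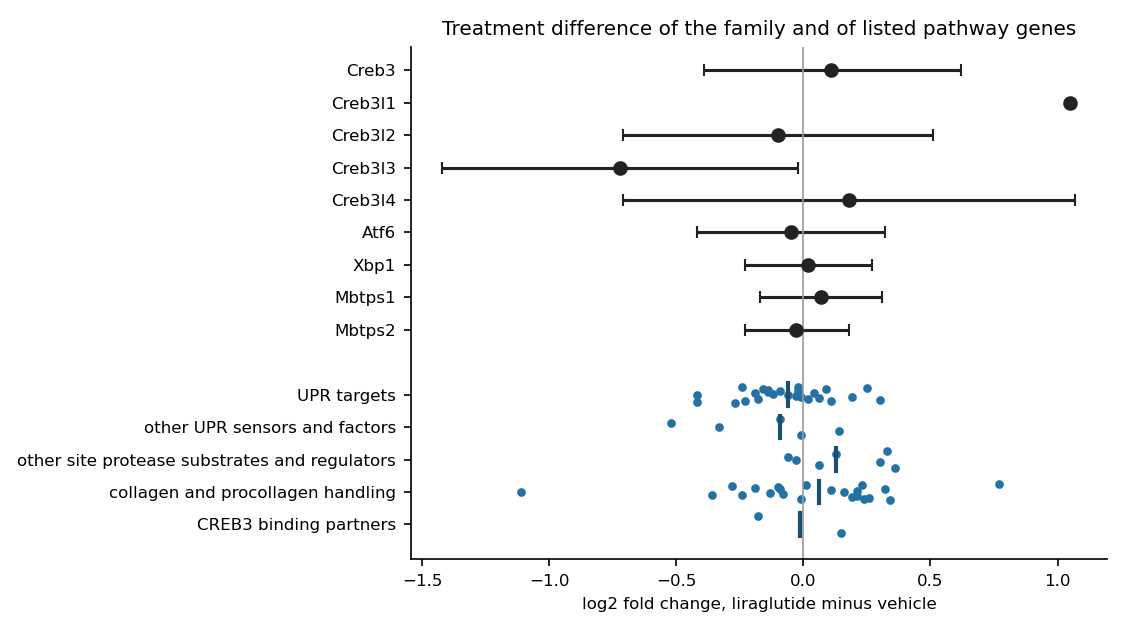
Log2 fold change of liraglutide minus vehicle (x axis) from the edgeR fit, for the 8 genes and Creb3l3 (black) with 95% confidence intervals except for Creb3l1, which is given with no test, and for each gene of the 5 pathway lists (blue points) with the median of the list (vertical bar). Creb3l1, the gene that chose the set and so was not tested, is at 1.05, the 7 other members lie between -0.10 and 0.18, and the list medians lie between -0.09 and 0.13.

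The site proteases also cut SREBP factors, which drive sterol and fatty acid synthesis, and site-1 protease cuts GNPTAB, an enzyme of lysosomal targeting. Of 7 such substrates and regulators, 5 had a positive and 2 a negative log2 fold change, with a median of 0.13, and none had an edgeR adjusted p under 0.05. Srebf1 averaged 78.4 ± 8.12 CPM in vehicle and 101 ± 20.2 CPM in liraglutide tumors (log2 fold change 0.36, unadjusted p = 0.0295, edgeR adjusted p = 0.503). Gnptab had a log2 fold change of 0.33, or 0.61 without vehicle tumor 5, Srebf2 of 0.06, Insig1 of -0.03 and Insig2 of -0.06. The binding partners of CREB3, Hcfc1 (0.15) and Crebzf (-0.18), had edgeR unadjusted p values of 0.0872 and 0.0654 and adjusted p values of 0.566 and 0.539. Their exact permutation p values, not adjusted for the number of genes, were 0.0159 and 0.0397. For Hcfc1 4 liraglutide tumors lay above all vehicle tumors, and for Crebzf 4 lay below.

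Collagens and the genes that fold and export them were the list closest to the known roles of Creb3l1 and Creb3l2. Of 22 genes, 12 had a positive and 10 a negative log2 fold change, with a median of 0.06, and none had an edgeR adjusted p under 0.05. Pcolce, an enhancer of procollagen cleavage, averaged 51.6 ± 15.5 CPM in vehicle and 88.0 ± 33.7 CPM in liraglutide tumors (SD, n = 5 each), with a log2 fold change of 0.77 (unadjusted p = 0.0209, edgeR adjusted p = 0.494). Plod2, a lysyl hydroxylase that sets collagen crosslinks, averaged 126 ± 73.1 and 58.3 ± 27.6 CPM, with a log2 fold change of -1.11 (unadjusted p = 0.0337, edgeR adjusted p = 0.509). Its high values, 171, 164 and 201 CPM, were those of vehicle tumors 1, 2 and 3, the highest in Creb3l2, whereas liraglutide tumors 1 and 2, at 230 and 251 CPM of Creb3l2, had 100 and 57.5 CPM of Plod2.

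Fkbp10, a collagen prolyl isomerase picked out after its values were seen, was the 1 gene of the list whose groups did not overlap. It was at 49.9, 51.9, 55.8, 46.2 and 43.7 CPM in vehicle tumors 1 to 5 and at 66.1, 57.0, 62.1, 60.0 and 64.2 CPM in liraglutide tumors 1 to 5. Its log2 fold change was 0.32 (SE 0.09, unadjusted p = 0.00549, edgeR adjusted p = 0.482, DESeq2 adjusted p = 0.0486), and 1.49% of all genes did not overlap. Of the genes tied to Creb3l2 in cartilage, Sec23a averaged 130 ± 33.2 CPM in vehicle and 107 ± 23.7 CPM in liraglutide tumors, a log2 fold change of -0.28. Serpinh1, the collagen chaperone, had one of 0.21, and P4ha2, a prolyl hydroxylase, one of -0.36.

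Col1a1 itself was at 1061, 1041, 836, 385 and 459 CPM in vehicle tumors 1 to 5 and at 1227, 588, 824, 1061 and 1079 CPM in liraglutide tumors 1 to 5. Vehicle tumors 4 and 5 and liraglutide tumor 2 were low, and the groups overlapped. The log2 fold change was 0.34 (SE 0.30, edgeR adjusted p = 0.71, exact permutation p = 0.238), and it ran from 0.18 without vehicle tumor 4 to 0.49 without vehicle tumor 1.

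The relation of Creb3l1 to Col1a1 was taken over the 10 tumors in log2 CPM with the mean of each treatment group subtracted, since Creb3l1 was chosen for its difference between the groups. Pearson's r was 0.01 (permutation p = 0.97) and Spearman's rho 0.12 (permutation p = 0.76). Without subtracting the group means r was 0.30 (permutation p = 0.387) and rho 0.47 (permutation p = 0.179). Leaving out liraglutide tumor 1 and vehicle tumor 3, which lay farthest from the median of Creb3l1, gave -0.10 with and 0.19 without the means subtracted. Vehicle tumor 4 combined the highest Creb3l1 of its group with the lowest Col1a1 of all tumors, and r without it was 0.48. Without liraglutide tumor 1, the highest in both genes, r was -0.18. Of 16845 genes with a mean of at least 1 CPM, 47.9% had a higher r with Creb3l1 than Col1a1 had, which put Col1a1 near the middle of them.

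**Figure D3:**
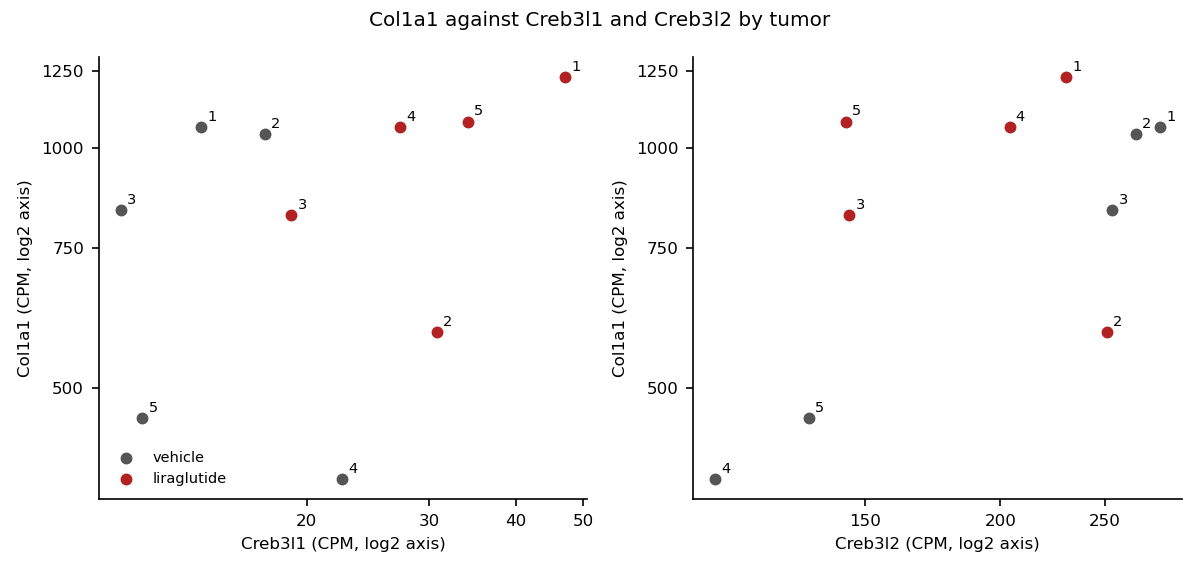
Col1a1 (y axis, CPM, log2 axis) against Creb3l1 (left) and Creb3l2 (right, x axes, CPM, log2 axes) in the 5 vehicle (grey) and 5 liraglutide (red) tumors, with the tumor number beside each point. On the left vehicle tumor 4, at 22.5 CPM of Creb3l1, has the lowest Col1a1, 385 CPM, and on the right vehicle tumors 4 and 5 are low in both genes.

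The relations of the 8 members to Col1a1 and of Creb3l1 to 6 cell type lists made a family of 14, in which none passed after Benjamini-Hochberg adjustment (smallest adjusted p = 0.398). Creb3l2 had the highest r with Col1a1, 0.66 (permutation p = 0.0926, adjusted p = 0.398), and rho was 0.70 (permutation p = 0.0857). It rested on vehicle tumors 4 and 5, without which r was -0.19. Without liraglutide tumor 2, the tumor with high Creb3l2 and low Col1a1, r was 0.95 (permutation p = 0.00232, adjusted p = 0.0237). For Mbtps1, at 0.52, r was 0.12 without vehicle tumor 4 and 0.79 without liraglutide tumor 2 (adjusted p = 0.0237). Values for the others were -0.52 for Creb3, -0.63 for Creb3l4, -0.64 for Atf6, -0.29 for Mbtps2 and -0.09 for Xbp1, with permutation p between 0.0864 and 0.803. With each tumor left out these ran from -0.91 to -0.36 for Creb3, -0.77 to -0.52 for Creb3l4, -0.75 to -0.54 for Atf6, -0.62 to -0.16 for Mbtps2 and -0.45 to 0.19 for Xbp1. Without the 2 tumors farthest from its median r was -0.04 for Creb3, -0.60 for Creb3l4, -0.54 for Atf6, 0.12 for Xbp1, -0.12 for Mbtps1 and -0.79 for Mbtps2, so that of Mbtps1 and of Xbp1 changed sign.

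Creb3l1 was set beside markers of the cells a fragment could hold. Its r with the summed list was 0.14 for fibroblasts, 0.17 for plasma cells, -0.31 for endothelium, -0.33 for leukocytes, -0.42 for epithelium and -0.63 for skeletal muscle (permutation p = 0.0714, adjusted p = 0.398). With each tumor left out in turn it ran from -0.14 to 0.34 for fibroblasts, -0.48 to 0.35 for plasma cells, -0.50 to -0.08 for endothelium, -0.75 to -0.11 for leukocytes, -0.61 to -0.31 for epithelium and -0.74 to -0.48 for skeletal muscle. Without liraglutide tumor 1 and vehicle tumor 3 r was -0.21 for skeletal muscle and 0.47 for fibroblasts, or 0.60 and 0.54 with the means not subtracted. Over all 10 tumors with the means not subtracted, r was 0.53 for plasma cells (permutation p = 0.118, adjusted p = 0.384) and 0.25 for fibroblasts. For skeletal muscle it was then 0.09, for leukocytes 0.03, for endothelium -0.26 and for epithelium -0.35. All 7 fibroblast markers were measured in every tumor, and their sum ran from 392 to 755 CPM in vehicle and from 556 to 699 CPM in liraglutide tumors, most of it Postn. Of the 7, 4 had a positive and 3 a negative log2 fold change, with a median of 0.03, among them Postn at 0.03, Dcn at -0.12, Lum at -0.13 and Fap at -0.07. Pdgfrb (log2 fold change 0.36, unadjusted p = 0.0287) and Thy1 (0.33, unadjusted p = 0.0243, 4 liraglutide tumors above all vehicle tumors) had an unadjusted p under 0.05, as did 9.59% of all genes, with edgeR adjusted p values of 0.503 and 0.499. All 6 leukocyte and all 3 skeletal muscle markers had a positive log2 fold change, with medians of 0.24 and 0.92. Endothelial markers had 3 positive and 2 negative values (median 0.00), and epithelial markers 2 and 3 (median -0.23). None in these 4 lists had an edgeR unadjusted p under 0.05, and their part in the level of Creb3l1 was not tested. The plasma cell sum was nearly all Sdc1, a gene that epithelial cells also express, with Mzb1 at 0 counts in all 10 tumors. The 3 keratinocyte markers summed to between 8.36 and 14.6 CPM in vehicle tumors and to 142, 49.4 and 41.2 CPM in liraglutide tumors 2, 4 and 5, with 6.65 and 6.82 CPM in liraglutide tumors 1 and 3. Creb3l1 was at 30.8, 27.2 and 34.1 CPM in the former 3 and at 47.1 and 19.0 CPM in the latter. The part of keratinocytes in the level of Creb3l1 was not tested.

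The labelled tissue could be checked against its own markers. Krt8 and Krt18 were at 1039 CPM or more in every tumor, Krt19 at 724 to 2262 CPM, Cdh1 at 560 to 2236 CPM, the surfactant gene Sftpb at 65.1 to 530 CPM and Nkx2-1, the lung lineage factor, at 17.7 to 132 CPM. Epcam stayed at or below 4.63 CPM and Sftpc at or below 5.95 CPM, with 0 counts of Sftpc in vehicle tumor 2, and Napsa was at or below 2.55 CPM. Nkx2-1 was at 66.1, 52.2, 109, 99.9 and 132 CPM in liraglutide tumors 1 to 5 and at 25.2, 17.7, 26.6, 95.4 and 66.6 CPM in vehicle tumors 1 to 5. Within each group, the tumors high in Creb3l2 and low on principal component 1 were also low in this marker. Over liraglutide tumors 2, 1, 4, 3 and 5, in this order, Nkx2-1 rose while Creb3l2 fell from 251 to 144 CPM.

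The genes whose pattern over the tumors was most like that of Creb3l1, by Pearson's r of log2 CPM with the group means subtracted, were Zfp563 (0.93), Lrrtm2, Gm37983 and Vmn2r1 (0.91 each), Tada1 and Gm7707 (0.90 each), and Gm13510 and Rictor (0.89 each). None is a collagen gene or a listed UPR target. Without subtracting the means r ranged from -0.04 for Lrrtm2 to 0.84 for Gm7707, so the likeness of most lay within the groups. For Creb3l2, looked at after its values were seen, the 8 most alike genes had r of 0.98 to 0.99 and included Tgfb1, the growth factor, Pgf and Septin9. All these are values over 10 tumors, with the compared genes read from the same libraries, given as a description.

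Relations among the members and with the summed UPR targets were added after the data were seen, 36 in all, with the group means subtracted. The level of Atf6 followed the summed CPM of the 25 UPR targets, which was 4705, 4994, 5489, 5901 and 7203 CPM in vehicle tumors 1 to 5 and 4834, 5219, 5505, 5447 and 5205 CPM in liraglutide tumors 1 to 5. The 5 vehicle tumors ranked alike in both quantities, with vehicle tumor 5 the highest of all. Pearson's r was 0.97 (permutation p = 0.00112, adjusted p = 0.0403) and rho 0.84 (permutation p = 0.00893, adjusted p = 0.136), and r was 0.85 without vehicle tumors 5 and 1, the farthest from the median of Atf6. This was the 1 relation of 36 with an adjusted p under 0.05, and 7 had an unadjusted p under 0.05. Its adjusted p ranged from 0.0259 to 0.191 when each tumor was left out in turn, above 0.05 in 7 of 10 cases, with r between 0.91 and 0.99.

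**Figure D4:**
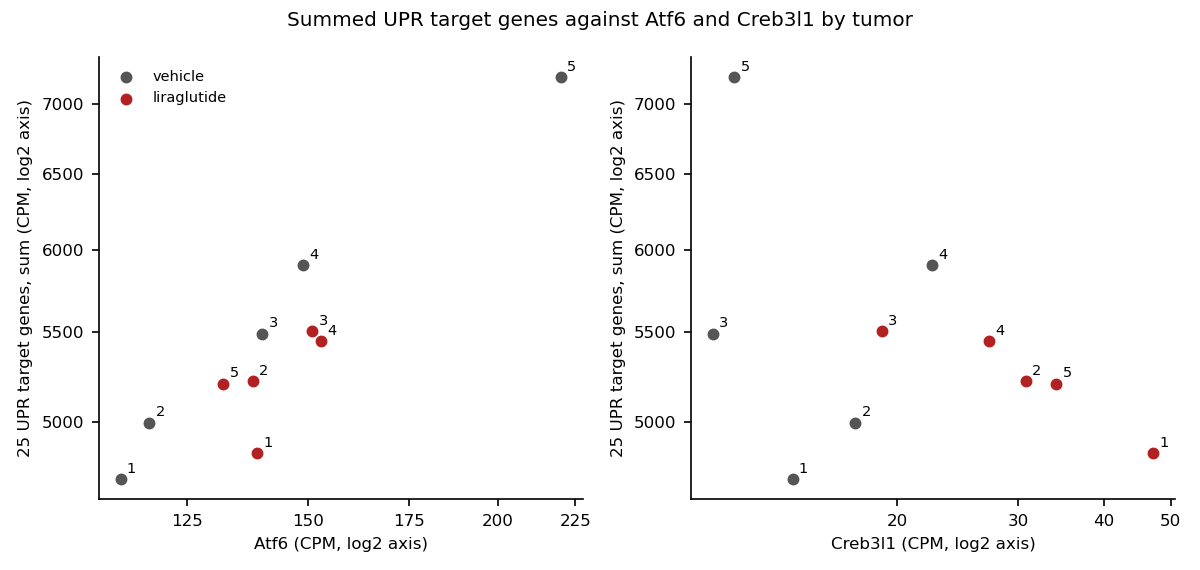
Summed CPM of the 25 UPR target genes (y axis, log2 axis) against Atf6 (left) and Creb3l1 (right, x axes, CPM, log2 axes) in the 5 vehicle (grey) and 5 liraglutide (red) tumors, with the tumor number beside each point. Vehicle tumor 5, at 220 CPM of Atf6 and 7203 CPM of the targets, is at the upper right on the left, while on the right Creb3l1 shows no such order.

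For the other members r with the same targets had either sign. For Creb3 it was 0.80 (adjusted p = 0.12), for Creb3l4 0.65, for Xbp1 0.59, for Mbtps2 0.16, for Creb3l1 -0.34, for Mbtps1 -0.46 and for Creb3l2 -0.72 (permutation p values 0.02, 0.0584, 0.0551, 0.535, 0.371, 0.288 and 0.0575, in this order). Without vehicle tumor 5 these became 0.65, 0.58, 0.28, 0.01, -0.18, -0.82 and -0.73. Among the members, Creb3 and Creb3l2 had r of -0.88 and rho of -0.94 (permutation p = 0.00364 and 0.00281, adjusted p of r = 0.0655), and -0.82 without vehicle tumors 2 and 1. Creb3l2 and Mbtps1 had r of 0.79 and Creb3 and Xbp1 of 0.73 (adjusted p = 0.0815 for each). Creb3l1 had no r beyond 0.35 in size with any other member.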

How the data were processed

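The authors deposited raw counts per gene and tumor, by versioned Ensembl identifier. Per the study's methods, reads passed FastQC, were mapped to GRCm39 with Bowtie and TopHat and were counted with featureCounts, and samples were then left out at quality assessment. The submitters' processing notes name GRCh38 and mm10 instead, so the build of the deposited counts is unsettled. The annotation release, strand setting and treatment of multiply mapped reads are not given in the sources used here. Of 55401 identifiers, 51731 (93.4%) matched GENCODE M39 without their version, 35 with it, and symbols, positions and exon lengths came from that release.

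Groups were taken from the sample labels. In R 4.3.3, edgeR 4.0.16 (filterByExpr, TMM, quasi-likelihood F test, treatment as the only factor) tested 17464 genes, with Benjamini-Hochberg adjustment over all of them and a threshold of 0.05. DESeq2 1.42.0, which the study used, limma-voom (limma 3.58.1), other scalings and filters, the tumor number as a block and each tumor left out in turn were alternatives. For single genes, log2 CPM also went through an exact permutation test (two-sided), whose p cannot go below 0.00794 for 5 against 5 tumors. Relations used log2 CPM with a prior count of 2 and 100000 permutations within treatment groups (scipy 1.17.1, numpy 2.4.6). Where the group means were not subtracted, the permutations ran over all tumors. Over the whole table, tumors of a group differed by at least 8.38 times what counting allows (chi-square per degree of freedom), which does not hold for each gene. Floors cover counting error only, and confidence intervals of log2 fold changes include the spread between tumors. The edgeR and permutation steps were tested on simulated data.

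The members and gene lists were chosen with earlier results of these data known. Genes were named by rule: the members, Creb3l3, Col1a1, the 2 largest positive and 2 largest negative log2 fold changes of each list, 9 listed genes, and the 8 genes most like Creb3l1 among those with a mean of at least 1 CPM. Fkbp10, the list for Creb3l2 and the 36 added relations were chosen after seeing the data. Promoter sequences are from RefSeq, GRCm38.p6. The other alleles of the line are not reported here.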

Additional observations from a re-analysis of the deposited data

Results flagged for a closer look

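In 20 groups of 5 tumors, those of the members, Creb3l3 and Col1a1 by treatment, 1 value stood apart by Dixon's criterion (0.71 for 5 values), and chance flags about 1 group in 20. It was Creb3l3 in liraglutide tumor 3, at 6.75 CPM against 4.58 CPM in the next highest liraglutide tumor, a gap of 0.717 of the range of the group. It lay within the range of the vehicle tumors, and its cause was not tested.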

How the results depend on the processing

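None of the 7 members other than Creb3l1, which was not tested, passed the threshold under any of the 17 alternatives, of which the minimum of 10 counts in every tumor removed Creb3l4. The count of genes at an adjusted p under 0.05 was 102 with DESeq2, which called 1 UPR target and 1 collagen gene (adjusted p = 0.0479 for Hsp90b1 at -0.42 and 0.0486 for Fkbp10 at 0.33), and 0 otherwise. The count at an unadjusted p under 0.05 was 2585 with the replicate block and 919 to 2704 with each tumor left out. The labels do not say whether same-numbered tumors of the 2 groups share more than their number. With the group means subtracted, correlations of same-numbered tumors were 0.354, 0.565, -0.0753, 0.0681 and 0.389. Their mean was 0.26, against -0.0682 for differently numbered pairs, and 3 of 10 tumors correlated best with their own number.

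Some differences turned sign, none of them past the threshold. With library size alone these were Atf6 (0.00), Mbtps2 (0.03) and Insig1 (0.04), with the replicate block Herpud1 (0.10) and Insig1 (0.00), and with limma-voom Herpud1 (0.10), Derl3 (0.07) and Insig1 (0.00). With each tumor left out the log2 fold change ran from -0.01 to 0.31 for Creb3, -0.26 to 0.03 for Creb3l2, -0.03 to 0.39 for Creb3l4, -0.14 to 0.14 for Atf6, -0.03 to 0.09 for Xbp1, -0.07 to 0.03 for Mbtps2, -0.39 to 0.42 for Herpud1, -0.66 to 0.20 for Derl3, -0.03 to 0.14 for Srebf2, -0.15 to 0.14 for Insig1 and -0.13 to 0.05 for Insig2. Of those that kept their sign, it ran from 0.01 to 0.11 for Mbtps1, 0.08 to 0.22 for Eif2ak3, 0.15 to 0.48 for Dnajc3, 0.14 to 0.47 for Os9, 0.20 to 0.61 for Gnptab, 0.10 to 0.31 for Serpinh1, -0.41 to -0.15 for Sec23a and -0.57 to -0.22 for P4ha2. It also kept its sign for Hsp90b1 (-0.48 to -0.36), Fkbp10 (0.29 to 0.37), Pcolce (0.58 to 0.94), Plod2 (-1.40 to -0.88) and Srebf1 (0.26 to 0.47). The UPR targets with a positive value numbered 6 to 15, and the other UPR sensors 1 to 3, or 2 with library size alone, at least 10 counts in every tumor, the replicate block or limma-voom. With each tumor left out the list median ran from 0.02 to 0.15 for the collagen list. For the site protease substrates and regulators it ran from 0.08 to 0.19.

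For Creb3l1 and Col1a1, r was -0.07 with the replicate block, -0.10 without the 2 tumors farthest from the median and -0.18 to 0.48 with each tumor left out. That of Creb3l2 was 0.46 to 0.95, that of Mbtps1 0.12 to 0.79 and that of Xbp1 -0.45 to 0.19, or 0.46 with the replicate block. For Atf6 and the UPR targets, chosen after seeing the data, r lost its adjusted call with the mean log2 CPM of the list (0.95, adjusted p = 0.0613), library size alone (0.97, adjusted p = 0.0623) and Spearman's rho (0.84, adjusted p = 0.136), kept it with the replicate block (0.99, adjusted p = 0.0245), and was 0.91 to 0.99 with each tumor left out, losing the call in 7 of 10 cases. The cause of these shifts was not tested. Creb3l4, at 7 to 30 counts per tumor, is the member that depth limits most.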
